A study of Mus musculus with 2 samples.

Results

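The 3 hairpins of miR-574, miR-1187 and miR-3082 give 5 mature miRNAs on the array: mmu-miR-574-5p and mmu-miR-574-3p, mmu-miR-3082-5p and mmu-miR-3082-3p, and mmu-miR-1187, which has 1 mature arm in the reference used. They were chosen by name, as 5 of the 1881 mouse miRNAs on the array, because 3 of them carry long runs of alternating U and G and had been among the brightest signals in these same data. Their brightness is therefore given as a description. The RNA came from exosomes, small membrane vesicles that cells release, collected from the medium of a mouse lung tumour cell line, Lewis lung carcinoma (LLC). For 24 h before collection the cells had grown without serum and with cisplatin at 5 µM, which crosslinks DNA. The 2 samples, one-colour (Cy3) arrays of separate experiments, form a single group. Untreated exosomes were not analysed here, so nothing below is an effect of the drug. A signal from pooled vesicles cannot tell apart more vesicles and more of an miRNA per vesicle.

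miRNAs are short RNAs cut from a hairpin precursor and loaded into Argonaute, where bases 2 to 8, the seed, select the mRNAs to be repressed. Often 1 arm of the hairpin is kept and the other degraded. Runs of U and G are also landing sites for RNA-binding proteins, among them CELF1 (CUGBP1), which regulates splicing and mRNA decay. miR-574-5p is known to act as a decoy for CELF1 in lung cancer cells and, carried in extracellular vesicles, as a ligand of the RNA-sensing Toll-like receptors. The functions of miR-1187 and miR-3082 are much less studied.

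The mature sequences, from RefSeq on build GRCm38.p6, are shown because the run of U and G is what the 3 bright arms have in common, while their seeds, in capitals, are not shared.
miR-574-5p: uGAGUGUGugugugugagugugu
miR-574-3p: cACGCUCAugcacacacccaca
miR-1187: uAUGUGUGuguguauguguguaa
miR-3082-5p: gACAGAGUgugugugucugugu
miR-3082-3p: cACAUGGCacucaacucugcag
The longest alternating run of U and G is 13 bases in miR-574-5p (bases 4 to 16), 11 in miR-1187 (bases 3 to 13) and 10 in miR-3082-5p (bases 7 to 16). U and G make up 91.3% of miR-574-5p, 82.6% of miR-1187 and 77.3% of miR-3082-5p. The partner arms go against the name UG-rich: U and G are 18.2% of miR-574-3p and 36.4% of miR-3082-3p, and their longest run is 2 bases. miR-574-5p and miR-3082-5p share a stretch of 12 bases, GAGUGUGUGUGU, miR-574-5p and miR-1187 share 11, and miR-1187 and miR-3082-5p share 10. In both miR-574-5p and miR-1187 part of the run lies in the seed. In miR-3082-5p it begins at the seed's last 2 bases. None of the 3 seeds is the seed of another of the 1608 array miRNAs that have a sequence in the RefSeq table.

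The hairpins show how these arms lie in their precursors, with the listed mature arms in capitals.
Mir574: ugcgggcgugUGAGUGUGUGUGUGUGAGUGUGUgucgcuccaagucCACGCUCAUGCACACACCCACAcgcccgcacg
Mir1187: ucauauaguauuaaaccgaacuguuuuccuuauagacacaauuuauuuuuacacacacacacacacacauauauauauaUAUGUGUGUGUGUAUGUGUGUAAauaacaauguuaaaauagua
Mir3082: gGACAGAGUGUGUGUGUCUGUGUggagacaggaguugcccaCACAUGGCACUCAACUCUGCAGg
Mir574 lies at chr5:64970318-64970395 on the plus strand and overlaps the gene bounds of Fam114a1 and of Tlr6, which encodes a Toll-like receptor. Mir1187 lies at chr5:82798944-82799065 on the minus strand, in no other gene of the RefSeq table. Mir3082 lies at chr17:25831365-25831428 on the minus strand and overlaps the gene bounds of both Jmjd8 and Stub1, the latter the gene of a ubiquitin ligase that works with chaperones. The table gives gene bounds only, so exons and introns were not assigned.

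The 3 UG-rich arms were detected on both arrays, and both partner arms on neither. A miRNA counted as detected when at least 1 of its probes had a total signal over 3 times its own error. Detection on both arrays was found for 3 of the 5 miRNAs and for 10.7% of all 1881 (201). Since brightness chose the members, nothing is read from that contrast. Array 1 detected 312 miRNAs (16.6%) and array 2 detected 202 (10.7%). With a stricter rule, a majority of spots well above background on both arrays, the count was again 3 of 5, against 4.68% of all miRNAs. No spot was saturated. Negative-control spots, 1000 per array, averaged 0.47 ± 2.36 on array 1 and 1.37 ± 2.81 on array 2 (SD over spots). Marker miRNAs passing this rule on the 2 arrays were counted to look at the labelled source. The count was 0 of 7 for epithelium, although the labelled source is a carcinoma line. It was 0 of 4 for red cells and 0 of 5 for leukocytes, with 1 leukocyte marker detected on array 1 alone. On the list for fibroblasts with smooth muscle it was 4 of 6: miR-199a-3p, miR-199a-5p, miR-199b-5p and miR-214-3p. The other markers on that list, miR-143-3p and miR-145a-5p, were not detected on both arrays. Only 10.7% of all 1881 miRNAs were detected, so a count of 0 on lists this short cannot show that a cell type was absent. The source was therefore not settled by these counts. Whether other cells contributed to the UG-rich signals was not tested.

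miR-574-5p, the 5p arm with the longest run, was read by 2 probes of 15 spots each. On array 1 its first probe had a processed intensity of 350.3 ± 14.4 (SD, n = 15 spots) and its second 603.1 ± 35.2 (SD, n = 15 spots). On array 2 the same probes gave 109.7 ± 6.56 (n = 14 spots after 1 outlier was left out) and 199.7 ± 13.8 (n = 15 spots). The spots of the arrays did not overlap for either probe: the dimmest on array 1 were 329.9 and 527.5, and the brightest on array 2 were 117.7 and 224.7. Spots are repeats within 1 array, and how many of the 201 detected miRNAs were separate in this way was not counted. Nothing particular to the UG-rich arms is therefore read from such separation, here or below. Averaged over probes on the log2 scale, the signal was 8.84 on array 1 and 7.21 on array 2. After scaling each array to its 75th percentile over the detected miRNAs it was 8.02 ± 0.05 (SD, n = 2), where the SD before scaling was 1.16. This was the 12th highest of the 201 miRNAs.

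miR-1187 was the dimmest of the 3. Its probes gave 194.3 ± 12.2 and 278.9 ± 11.2 on array 1, and 60.0 ± 7.18 and 84.8 ± 7.67 on array 2 (SD, n = 15 spots each). The lowest spot on array 1 was 171.8 and the highest on array 2 was 98.8, so the arrays were again separate. Its log2 signal was 7.86 and 6.15 before scaling, and 7.0 ± 0.00053 after it (SD, n = 2; 1.21 before scaling), 24th of the 201. That small SD arises because its difference between the arrays, 1.71, equals the amount that scaling removed (1.71). The scaled SDs of miR-574-5p and miR-3082-5p are small for the same reason, and none of the 3 SDs is a measure of repeatability.

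miR-3082-5p lay between them. On array 1 its probes had intensities of 220.2 ± 9.85 (n = 14 spots, 1 outlier left out) and 414.4 ± 13.9 (n = 15 spots), and on array 2 of 55.3 ± 5.90 and 124.6 ± 6.99 (n = 15 spots each). Every spot on array 1 was at 205.2 or above, and every spot on array 2 at 136.2 or below. The log2 signal was 8.24 and 6.37 before scaling and 7.30 ± 0.11 after it (SD, n = 2; 1.32 before scaling), 18th of the 201.

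**Figure D1:**
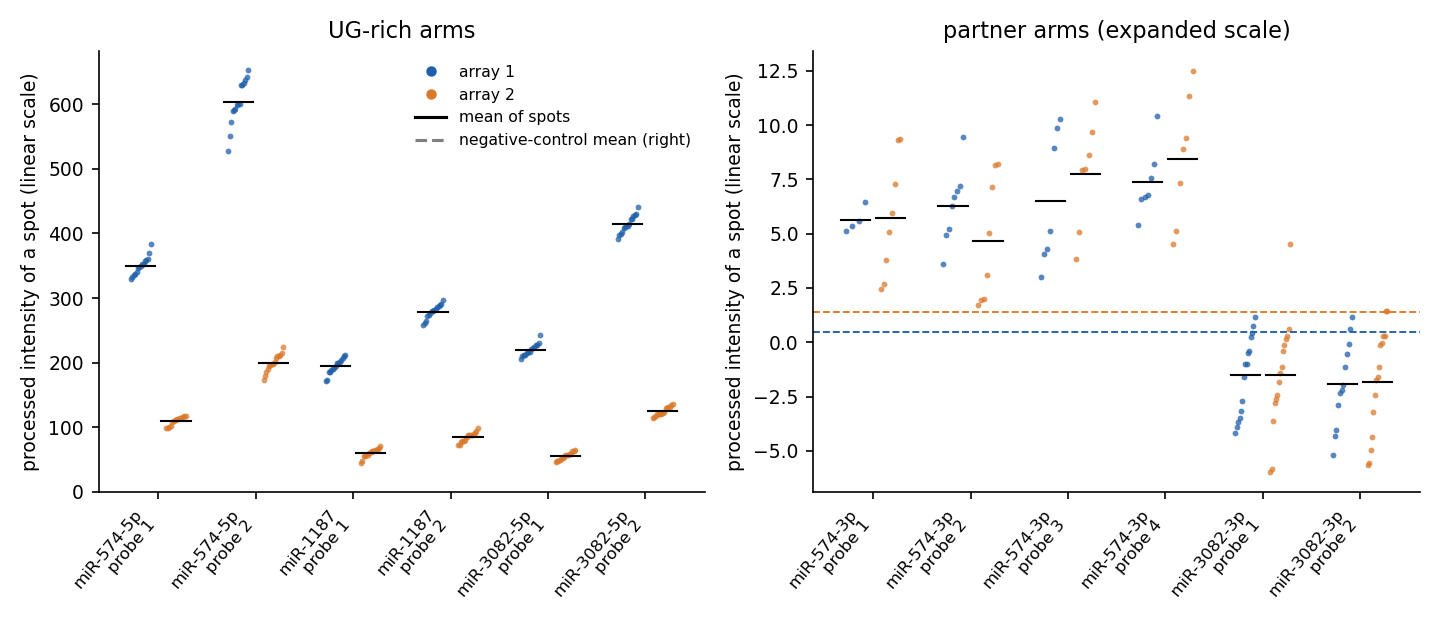
Processed intensity of each spot (linear scale) for the UG-rich arms on the left and their partner arms on the right, by probe, with array 1 in blue, array 2 in orange, the mean of the spots as a black line and the negative-control means as dashed lines. All spots of the UG-rich arms lie higher on array 1 than on array 2 for the same probe, while miR-574-3p stays below 12.5 and miR-3082-3p near or below the negative-control means.

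The error within an array was small beside these signals. The spots of a probe varied by 3.36% to 6.26% (coefficient of variation) on array 1 and by 5.61% to 12% on array 2 for the 3 UG-rich arms. Over the 76 probes of detected miRNAs with a mean log2 signal of 6 or more, the median was 4.08% on array 1 and 6.37% on array 2. The total signal was 13.5 to 13.8 times its own error on array 1 and 12.6 to 13.3 times on array 2. Probes of 1 miRNA disagreed more than its spots did. The second probe was brighter than the first by 0.78 and 0.86 log2 units for miR-574-5p on arrays 1 and 2, by 0.52 and 0.50 for miR-1187, and by 0.91 and 1.18 for miR-3082-5p. Brightness thus depends on the probe, and the order of the 3 miRNAs by signal is not an order by amount.

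Each partner arm was set beside its UG-rich arm. miR-574-3p, read by 4 probes, had a mean intensity of 6.54 ± 2.03 on array 1 (SD, n = 26 spots, 4 outliers left out) and 6.55 ± 3.05 on array 2 (n = 30 spots), where miR-574-5p had means of 476.7 and 156.3. None of its spots was well above background by the scanner software's flag. Its probes reached 1.97 to 2.55 times their error on array 1 and 1.58 to 2.78 times on array 2, under the threshold of 3. All 26 and 30 spots were nevertheless above the negative-control mean. Only 9 of the 1000 negative-control spots on array 1 and 29 of 1000 on array 2 were as high as the mean of miR-574-3p. Of the miRNAs not detected, 17 of 1569 on array 1 (1.08%) and 17 of 1679 on array 2 (1.01%) were brighter. miR-574-3p therefore lay just under the detection limit, and no level is given for it.

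miR-3082-3p gave no such signal. Its mean intensity was -1.70 ± 1.88 on array 1 (SD, n = 27 spots) and -1.67 ± 2.50 on array 2 (n = 30 spots), below the mean of the negative controls, and 820 and 877 of the 1000 negative-control spots were higher. miR-3082-5p had means of 320.6 and 90.0. Arms are read by different probes, so no fold between arms was computed. Detection of the 5p arm alone was common on this array: of 70 hairpins with both arms on the array and the 5p arm detected, 60 had no detected 3p arm. The 3p arm was detected for 14.3% of the 70, near the 10.7% of all 1881 miRNAs detected on both arrays. Nothing is therefore read from that count about which arm is kept.

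The 3 UG-rich arms were brighter on array 1 than on array 2 by similar amounts. Before scaling the difference was 1.64 log2 units (3.11-fold) for miR-574-5p, 1.71 (3.28-fold) for miR-1187 and 1.87 (3.65-fold) for miR-3082-5p, a median of 1.71. Both probes of each miRNA gave it: 1.68 and 1.60 for miR-574-5p, 1.70 and 1.72 for miR-1187, and 2.0 and 1.73 for miR-3082-5p. The gap between probes was 0.08, 0.02 and 0.26, against a median of 0.13 over the 175 detected miRNAs with 2 probes. The arrays come from independent experiments, 1 array each, so the difference has no replicate and no test.

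Differences of this size were common on the array. All 3 were over 2-fold brighter on array 1, as were 42.3% of the 201 detected miRNAs, whose median difference was 0.78 (interquartile range 0.19 to 1.66). For the 38 detected miRNAs with a mean log2 signal of 6 or more the median was 1.34, and 25 of the 38 (65.8%) were over 2-fold brighter. Larger differences than those of miR-574-5p, miR-1187 and miR-3082-5p were found for 51, 49 and 38 of the 201. The 4 spike-in controls differed by 0.06 to 0.27. After scaling, array 1 minus array 2 was -0.077 for miR-574-5p, 0.00076 for miR-1187 and 0.15 for miR-3082-5p. By then 0 of the 3 were over 2-fold apart, against 48.8% of the 201. Scaling removed 1.71 log2 units, close to the unscaled differences of these 3, so their count follows from the scaling. The share after scaling was not counted for the bright miRNAs alone.

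**Figure D2:**
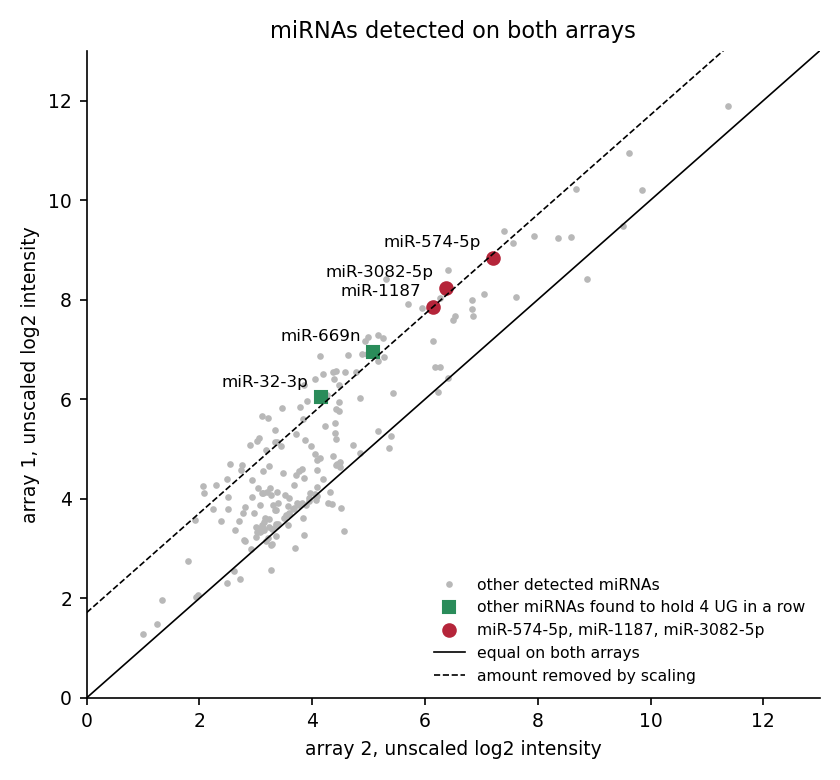
Unscaled log2 intensity of the 201 miRNAs detected on both arrays, array 1 against array 2, with the 3 UG-rich arms in red and 2 other miRNAs found to hold 4 UG in a row in green, the search covering the 168 of the 201 with a matched sequence. The solid line marks equal signals and the dashed line a difference of 1.71, near which the 5 coloured points lie.

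**Figure D3:**
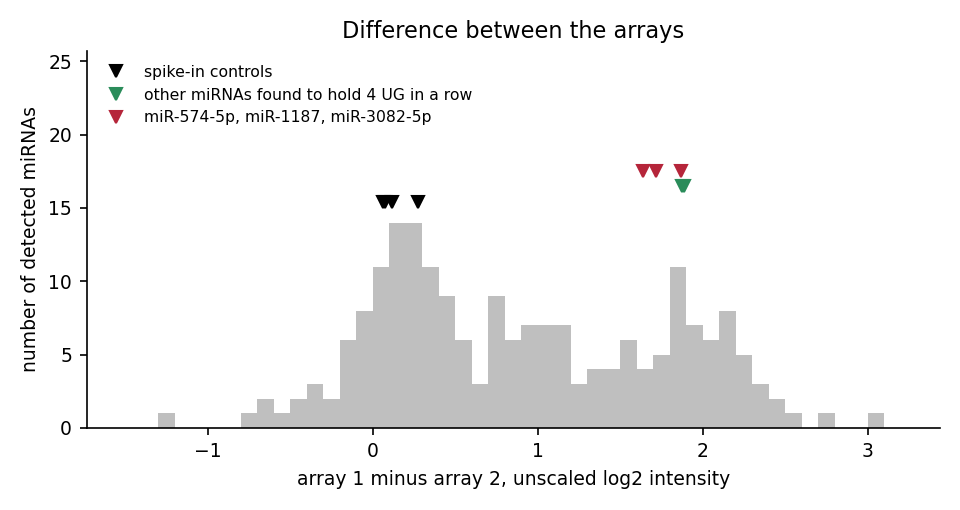
Histogram of array 1 minus array 2 (unscaled log2 intensity) for the 201 detected miRNAs, with triangles for single miRNAs and controls. The 3 UG-rich arms (1.64 to 1.87) lie in the upper part of the distribution and the 4 spike-in controls (0.06 to 0.27) in the lower part.

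The detected miRNAs closest in signal on the 2 arrays hold no run of 4 UG, leaving aside miR-7042-5p, for which no sequence was matched. Distance was measured between unscaled log2 signals over both arrays. The nearest to miR-574-5p was miR-7042-5p (9.14 and 7.55, a distance of 0.46), followed by miR-8117 (0.58). The nearest to miR-1187 was let-7b-5p, a let-7 family member (7.84 and 5.95, a distance of 0.20), then miR-7005-5p (0.21). The nearest to miR-3082-5p was miR-21a-5p, an miRNA abundant in many carcinomas (8.16 and 6.34, a distance of 0.08), then miR-7005-5p (0.23). With 2 arrays, such closeness describes signals only. Shorter runs do occur in these neighbours. The longest alternating run was 6 bases in let-7b-5p, which holds 3 UG in a row, and 5 in miR-8117. It was 3 bases in miR-21a-5p and 2 in miR-7005-5p.

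The other miRNAs with such a repeat are described here, and whether signal goes with the sequence was not tested. Among the 1608 array miRNAs with a RefSeq sequence, 7 (0.435%) hold UGUGUGUG, searched in the mature RNA strand only, and the 3 UG-rich arms are among them. The other 273 names, 33 of the 201 detected miRNAs among them, had no matched sequence and were not searched, so the list is not complete. One of the 33 is miR-466i-5p, whose log2 signals of 10.22 and 8.67 were higher than those of the 3 arms, and which was picked out after its values were seen. The 4 others on the list are shown with their longest alternating run in capitals.
miR-32-3p: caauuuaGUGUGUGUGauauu
miR-669n: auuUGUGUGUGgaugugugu
miR-672-5p: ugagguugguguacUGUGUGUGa
miR-466k: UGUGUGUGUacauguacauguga
Of these 4, 2 were detected on both arrays, beside 10.4% of the 1608. miR-669n had log2 signals of 6.95 and 5.08 before scaling and a scaled mean of 6.02 ± 0.11 (SD, n = 2). miR-32-3p, the 3p arm of the miR-32 hairpin, had 6.04 and 4.15, and a scaled mean of 5.10 ± 0.12. Both were brighter on array 1, by 1.87 and 1.89, next to the 1.64 to 1.87 of the other 3 detected miRNAs with the repeat. miR-672-5p was detected on array 1 only (4.88, against 2.45 on array 2). miR-466k, with a run of 9 bases at its 5′ end, was detected on neither (0.12 and 0.21), although its run is longer than that of miR-669n (8 bases).

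By length of the longest alternating run, both arrays detected 10.3% of 1531 miRNAs with 0 to 4 bases, 9.23% of 65 with 5 or 6, 1 of 7 with 7 or 8, and 4 of 5 with 9 or more, all among the 1608 with a sequence. Of those 5, 3 are the members chosen for their brightness and runs, so the last share describes the choice as much as the array. The remaining pair was split, with miR-32-3p detected and miR-466k not. These classes were set after the values were seen. Whether probes for 1 UG-rich miRNA also bind another was not tested.

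**Figure D4:**
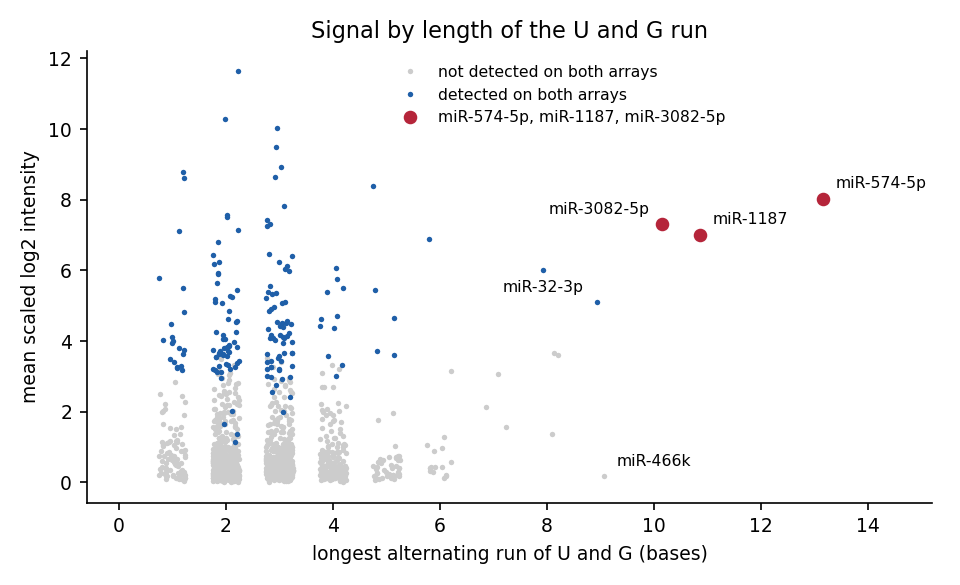
Mean scaled log2 intensity of the 1608 miRNAs with a sequence against their longest alternating run of U and G in bases, with points spread sideways for visibility. The 3 UG-rich arms in red stand at 10 to 13 bases and 7.0 to 8.02, and miR-466k at 9 bases was not detected.

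In the authors' deposited value table the same arms stood above the lowest value and the partner arms at it. miR-574-5p was listed at 6.91 for array 1 and 6.65 for array 2, miR-1187 at 5.66 and 5.38, and miR-3082-5p at 5.97 and 5.66, all log2 values. Both 3p arms were listed on both arrays at the lowest value of the table. The differences between arrays were 0.26, 0.28 and 0.32 there. Both columns of that table hold the same values in sorted order, so it holds no difference between the arrays as a whole. Its differences are therefore not comparable with the unscaled ones above. How the table was centred is unknown here.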

How the data were processed

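Per the labels' protocols, exosome RNA was labelled with Cy3 by a linear-amplification kit, while the file headers name a scanner protocol for miRNA arrays. Both arrays shared 1 slide and 1 scan. The deposited intensity values, on a linear scale, came from Agilent Feature Extraction, version 10.7.1.1 by the submitters' processing notes, and are background-subtracted and spatially detrended per the file headers. The authors' value table holds log2 values and served as an alternative. Population outlier spots were left out (1011 on array 1, 1094 on array 2). Intensities under 1 were set to 1, log2 values were averaged over spots and then probes, and each array's 75th percentile over the 201 detected miRNAs was subtracted and the mean of both percentiles added back. Sequences of 1608 of 1881 miRNAs were matched by exact name to RefSeq. Members and lists were chosen with earlier results of these data known. Named miRNAs were the members, list members detected on both arrays, the 2 nearest in signal and the fibroblast and smooth muscle markers. miR-672-5p, miR-466k, miR-466i-5p and let-7a-5p were added after their values were seen. With 1 group of 2 arrays, no p-values were computed and the number of arrays limits precision. Alternatives covered detection, background correction (normexp, limma 3.58.1 in R 4.3.3), probes, scaling and repeat length. Calculations used Python 3.11.15, numpy 2.4.6 and pandas 2.3.3, and were tested on simulated data of 1881 miRNAs (4 of 4 checks passed).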

Additional observations from a re-analysis of the deposited data

How the results depend on the processing

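The count of 3 detected members was the same under all 4 other detection rules (majority of spots well above background, 3 SD over the negative controls, 6 times the error, at least 1 array) and 3 to 3 when either array was left out. The count of 5 detected UG-repeat miRNAs was 5 or 6 under these rules, and 5 to 6 with 1 array left out. It was 6 of 25 with 3 UG in a row and 5 of 9 when 4 GU also counted. With 5 UG in a row, where fewer miRNAs qualify, it was 2 of 2. The 3 detected members had been picked as bright in these same data, and they are among the 5. Neither count is therefore evidence that detection is stable. The median difference between arrays of 1.71 became 1.32 with normexp correction, whose offset of 50 compresses differences. It became 0.28 in the authors' deposited table, whose columns hold the same sorted values, and 0.00076 after scaling, which by construction removes 1.71. It was 1.72 with the brightest probe and 1.71 with summed probes. After scaling, the difference of miR-574-5p changed sign, to -0.077. Over the values of single members, 46 moved by less than their spread and 29 by more. These counts do not measure robustness. The mean signal over both arrays is the same with and without scaling by construction, so those values could not move. The spread itself can be tiny: miR-1187, with a scaled SD of 0.00053, counted as moved at 6.92 under another scaling, against 7.0. The signal of miR-3082-3p, below the mean of the negative controls, carries little information. No paired analysis was possible because there is only 1 group.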

Other observations

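Base composition was also set beside detection. Of the 20 array miRNAs whose RefSeq sequence holds no C, 9 (45%) were detected on both arrays, miR-574-5p and miR-1187 among them, with a median scaled log2 signal of 6.12. Of the 27 with U and G at 80% or more of their bases, 10 (37.0%) were detected, again with miR-574-5p and miR-1187 among them. Both had been chosen for their brightness and runs, so neither share is independent of that choice. The share over all 1608 miRNAs with a sequence was 10.4%. These classes were chosen after the values were seen, and no test was run. In the class without C, the median signal is that of let-7a-5p and the median array difference that of let-7b-5p. The class thus holds members of let-7, a family of related sequences, and their share of it was not counted. Whether base composition bears on detection was not tested. The median difference between the arrays was 1.89 log2 units for the 9 detected miRNAs without C, 1.34 for the 38 detected miRNAs with a mean log2 signal of 6 or more, and 0.78 over all 201 detected.

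The scanner files' listed total of a miRNA equalled the sum of its own probes for the 3 detected members, for example 202.2 and 65.6 for miR-574-5p on arrays 1 and 2.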
